A study of Homo sapiens with 19 samples.

Results

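Chromosome 13 held a small share of the H3K27ac peaks of K562 cells: 479 of 37424 (1.28%), against 609 of 20772 in HL-60 cells (2.93%), 1009 of 35136 in Molm13 cells (2.87%) and 1142 of 37571 in OCI-AML3 (3.04%). The lower number than in HL-60 depended on the threshold, since with peaks of q-value below 0.05 the counts were 468 in K562 and 465 in HL-60, whereas the lower share did not (1.32% against 2.63%). Coding promoters marked in at least 1 acute myeloid leukaemia (AML) line were also marked in K562 for 165 of 195 genes, or 84.6%, against 85.8% on all chromosomes. Of the regions with a distal peak in those lines 87 of 1539 also had a distal peak in K562, or 5.65%, against 13.2% on all chromosomes. The 30 coding promoters marked in AML lines and not in K562 included FLT3, DACH1, ALOX5AP and TNFSF13B.

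The members are all peaks of chromosome 13 in 4 lists of acetylation of lysine 27 of histone H3 (H3K27ac), 3239 of 131110 peaks in all. They were taken by position, all peaks of a chromosome that was picked with earlier results of these data known. A peak is in a list only because its enrichment passed the peak caller's threshold, so the presence, number and fold enrichment of peaks are given as descriptions. The series holds 19 ChIP-seq samples of myeloid leukaemia cell lines. HL-60 and Molm13 cells, labelled as acute myeloid leukaemia, were untreated. OCI-AML3, also labelled as acute myeloid leukaemia, and K562, labelled as chronic myelogenous leukaemia, both expressed dCas9-KRAB-mCherry (dead Cas9 fused to a repressor domain) and carried an empty vector in place of a guide RNA, and were sorted for both fluorescent reporters after lentiviral transduction. For each line 1 H3K27ac library was used, the only one without guide RNAs. The series also holds H3K27ac libraries of OCI-AML3 and K562 with guide RNAs against LTR2B repeats, which were not used here. There is thus no spread between replicates, no difference between lines was tested, and line, vector and library cannot be told apart. Read depth is unknown, and the lists differ in length, with 20772 peaks on chromosomes 1 to 22, X and Y in HL-60 cells, 35136 in Molm13 cells, 37571 in OCI-AML3 and 37424 in K562. The promoters of 5 erythroid markers (GATA1, KLF1, ALAS2, EPOR and TAL1) were marked in K562 and in none of the AML lines. Of 7 myeloid markers, 7 were marked in Molm13 cells, 7 in OCI-AML3, 5 in HL-60 cells and 5 in K562, where CEBPA and MPO were without a peak. Of the lymphoid markers, PAX5 was marked in HL-60 and in no other line, and CD3D, CD3E and MS4A1 were marked in none.

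H3K27ac is deposited by the acetyltransferases p300 and CBP on nucleosomes beside active promoters and active enhancers. At promoters rich in CpG dinucleotides the mark is shared by most cell types, whereas at distal enhancers it differs between cell types. Human chromosome 13 has a short arm of repeats and a long arm with few genes. The long arm holds the tumour suppressors RB1 and BRCA2, the blood cell receptor FLT3 and the DLEU2 locus, which is deleted in many chronic lymphocytic leukaemias and hosts miR-15a and miR-16-1.

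The promoters that lead each class are shown first. For each gene the 300 bases run from 250 upstream to 50 downstream of the RefSeq start (GRCh38.p14), written 5′ to 3′ along the gene's strand. Capitals mark matches, on either strand, of any of 5 motifs, given here with the share of 15306 coding promoters of all chromosomes that held each. These were the CCAAT box (CCAAT, found in 36.6% of promoters), the GC box (GGGCGG, found in 59.2% of promoters), an ETS core (CCGGAAG, found in 14.4% of promoters), a PU.1-type ETS site (GAGGAA, found in 27.7% of promoters) and a GATA site (AGATAAG, found in 2.14% of promoters). RefSeq promoters were matched by symbol for 77.7% of all coding genes, so the genome-wide shares are of the matched genes only. The first 3 promoters, at chr13:36999291-36999590 (ALG5, minus strand), chr13:37000536-37000835 (EXOSC8, plus strand) and chr13:26222322-26222621 (RNF6, minus strand), had the strongest peaks on average among those marked in all 4 lines.
ALG5: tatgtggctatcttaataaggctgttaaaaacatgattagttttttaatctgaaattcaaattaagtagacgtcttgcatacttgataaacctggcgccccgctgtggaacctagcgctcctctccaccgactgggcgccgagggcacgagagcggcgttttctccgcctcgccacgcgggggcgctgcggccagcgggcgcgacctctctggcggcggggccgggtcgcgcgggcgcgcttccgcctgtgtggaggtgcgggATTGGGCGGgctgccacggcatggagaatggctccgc
EXOSC8: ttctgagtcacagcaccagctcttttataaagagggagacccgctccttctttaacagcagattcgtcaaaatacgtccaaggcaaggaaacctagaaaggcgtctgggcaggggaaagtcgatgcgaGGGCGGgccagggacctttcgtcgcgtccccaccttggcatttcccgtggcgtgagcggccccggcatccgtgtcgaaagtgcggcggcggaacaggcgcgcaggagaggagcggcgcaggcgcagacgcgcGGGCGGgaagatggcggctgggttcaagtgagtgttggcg
RNF6: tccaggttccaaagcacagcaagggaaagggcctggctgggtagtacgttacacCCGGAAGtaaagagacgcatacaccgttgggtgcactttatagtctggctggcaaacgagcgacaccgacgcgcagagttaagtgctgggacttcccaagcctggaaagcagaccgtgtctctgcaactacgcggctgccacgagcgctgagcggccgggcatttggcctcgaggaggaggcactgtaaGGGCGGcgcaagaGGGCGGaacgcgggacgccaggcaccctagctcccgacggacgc
These 3 windows were GC-rich (61.3% to 62.0%), held 26 to 32 CpG dinucleotides and each contained a GC box, which in ALG5 overlapped the CCAAT match. The next 3, at chr13:71867155-71867454 (DACH1), chr13:28100527-28100826 (FLT3) and chr13:32428081-32428380 (N4BP2L1), all on the minus strand, were the strongest among those marked in all 3 AML lines and not in K562.
DACH1: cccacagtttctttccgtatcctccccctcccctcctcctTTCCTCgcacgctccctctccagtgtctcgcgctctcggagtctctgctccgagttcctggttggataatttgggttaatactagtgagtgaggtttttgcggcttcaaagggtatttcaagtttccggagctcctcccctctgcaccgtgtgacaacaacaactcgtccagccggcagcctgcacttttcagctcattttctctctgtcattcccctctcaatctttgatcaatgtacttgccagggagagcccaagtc
FLT3: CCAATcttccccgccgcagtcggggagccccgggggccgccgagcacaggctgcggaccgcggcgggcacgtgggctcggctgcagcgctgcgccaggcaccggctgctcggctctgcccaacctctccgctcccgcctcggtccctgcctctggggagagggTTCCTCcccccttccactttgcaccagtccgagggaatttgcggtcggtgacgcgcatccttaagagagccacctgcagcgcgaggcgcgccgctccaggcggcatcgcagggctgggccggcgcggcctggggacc
N4BP2L1: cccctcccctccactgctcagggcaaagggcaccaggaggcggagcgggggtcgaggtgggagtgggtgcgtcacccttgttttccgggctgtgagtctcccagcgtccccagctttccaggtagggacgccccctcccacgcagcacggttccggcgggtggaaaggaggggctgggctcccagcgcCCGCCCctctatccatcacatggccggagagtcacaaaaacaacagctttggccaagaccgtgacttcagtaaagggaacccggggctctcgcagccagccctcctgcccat
They held 12, 34 and 17 CpG dinucleotides, and DACH1 and FLT3 each had 1 PU.1-type match. A peak of every AML list and none of the K562 list touched each of these 3 windows. A match describes the letters of a window and does not show that a factor was bound.

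To place chromosome 13 among the other chromosomes, peaks were counted per Mb of determined sequence. K562 had 4.89 peaks per Mb on chromosome 13, against 13.6 over the other autosomes, which is 0.360 of that density. In HL-60, Molm13 and OCI-AML3 the chromosome had 6.22, 10.3 and 11.7 peaks per Mb, or 0.838, 0.823 and 0.872 of the density of the other autosomes in the same list. Chromosome 13 was last of the 22 autosomes in K562, below chromosome 18 with 7.34 peaks per Mb, and ranked 18th from the top in HL-60 cells, 19th in Molm13 cells and 16th in OCI-AML3. A sparse autosome was not limited to the K562 list, since chromosome 8 had 2.47 peaks per Mb in HL-60 cells. As a share of each list chromosome 13 held 1.28% of K562 peaks (Wilson 95% interval 1.17% to 1.40%), 2.93% of HL-60 peaks (2.71% to 3.17%), 2.87% of Molm13 peaks (2.70% to 3.05%) and 3.04% of OCI-AML3 peaks (2.87% to 3.22%). These intervals, here and below, cover counting error only and not the spread between libraries. Peaks covered 0.918% of the determined sequence of chromosome 13 in K562, whereas K562 peaks covered 2.62% of the genome. In OCI-AML3 the corresponding values were 2.15% and 2.39%.

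Peaks within 500 bp of an annotated transcription start site (TSS) of any gene were called promoter peaks, and all others distal. K562 had 201 promoter peaks and 278 distal peaks on chromosome 13, so that promoter peaks made up 42.0% (37.6% to 46.4%). The promoter share was 29.2% in HL-60 cells (178 promoter and 431 distal peaks), 24.2% in Molm13 cells (244 and 765) and 24.0% in OCI-AML3 (274 and 868). Over all chromosomes the share was 44.8% in HL-60 cells, 36.1% in Molm13 cells, 36.9% in OCI-AML3 and 37.2% in K562. Chromosome 13 thus had a lower promoter share than the whole list in the 3 AML lines and a higher one in K562. The lines differed more in distal than in promoter peaks: 1.18% of all distal K562 peaks lay on the chromosome, against 3.41% to 3.76% in the AML lines. Of all promoter peaks, 1.44% (1.26% to 1.65%) lay there in K562 and 1.91% to 1.98% in the AML lines. Per Mb, chromosome 13 had 0.332 of the distal density of the other autosomes in K562 and between 0.981 and 1.08 of it in the AML lines. For promoter peaks the same ratio was 0.408 in K562 and 0.544 to 0.564 in the AML lines.

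Fold enrichment over background, as the authors' peak caller gave it, was compared only within a list, as the percentile of a peak among all peaks of its line (100 being the strongest). The median percentile of chromosome 13 peaks was 35.8 in HL-60 cells, 37.2 in Molm13 cells, 40.2 in OCI-AML3 and 63.2 in K562. Medians of the other autosomes ran from 37.8 to 64.8 in HL-60 cells and from 34.2 to 61.1 in Molm13 cells. In OCI-AML3 they ran from 20.3 to 58.7 and in K562 from 38.0 to 64.8. Only 29 K562 peaks of the chromosome (6.05%) were in the weakest 20% of the K562 list, against 176 of HL-60 (28.9%), 314 of Molm13 (31.1%) and 274 of OCI-AML3 (24.0%). Conversely, 27.1% of the K562 peaks and 13.2% to 14.9% of the AML peaks were in the strongest 20%. Distal peaks had a median percentile of 51.5 in K562 and 27.3, 28.9 and 34.2 in HL-60, Molm13 and OCI-AML3. Over all chromosomes the distal medians were 37.6 in K562 and 32.4, 37.0 and 38.2 in the AML lines. Promoter peaks had medians of 78.8 in K562 and of 75.0, 77.2 and 70.8 in the other lines. Their medians over all chromosomes were 74.5 in K562 and 74.0, 76.1 and 73.3 in the AML lines. The medians of all peaks also reflect the larger promoter share in K562 (42.0%, against 24.0% to 29.2% in the AML lines). A q-value of 0.05, the limit stated in the methods, was exceeded by 11 of the K562 peaks on chromosome 13, 144 of those of HL-60, 96 of Molm13 and 81 of OCI-AML3, and the weakest peaks in the lists had q-values of 0.0884 to 0.0966.

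Along the chromosome, peaks were counted by their midpoint in bins of 5 Mb. The first 3 bins have no determined sequence, which left 20 bins. Bin 10 (45000001 to 50000000, with RB1, LCP1 and RUBCNL) was the fullest in the AML lines, with 61 peaks in HL-60 cells, 134 in Molm13 cells and 143 in OCI-AML3. It held 51 in K562, whose fullest bin was the last (bin 23, 110000001 to 114364328, with CUL4A and ING1) with 53. K562 had the lowest count of the 4 lines in 16 of 20 bins and was above all of them in none. The shortfall was uneven. Bin 15 (70000001 to 75000000, with DACH1 and KLF12) had 4 peaks in K562, against 12, 41 and 60 in HL-60, Molm13 and OCI-AML3. Bin 18 (85000001 to 90000000) had 3, against 8, 24 and 44. Bin 7 (30000001 to 35000000, with FRY, ALOX5AP and BRCA2) had 26, against 51, 113 and 116. In the other 4 bins the K562 count was above that of HL-60 alone or of HL-60 and another AML line, with 50 peaks against 45 in HL-60 for bin 9, 47 against 40 for bin 11, 15 against 12 for bin 14 and 51 against 35 for bin 20. The ratio of K562 to OCI-AML3 peaks accordingly ran from 0.0667 in bin 15 to 0.947 in bin 19. For distal peaks alone the extremes were 0.0364 (2 against 55 peaks) and 0.933 (14 against 15) in the same bins.

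The lines nevertheless shared the outline of the profile. Over the 20 bins the rank correlation of peak counts was 0.92 between Molm13 and OCI-AML3, 0.87 between HL-60 and K562 and 0.71 between OCI-AML3 and K562. With the number of coding genes per bin it lay between 0.75 (OCI-AML3) and 0.87 (Molm13). These are descriptions, since bins share gene content, base composition and libraries. The middle of the long arm (bins 12 to 19) held 49 of the 320 coding genes and 76 peaks in K562 (15.9%), against 130 in HL-60 cells (21.3%), 214 in Molm13 cells (21.2%) and 279 in OCI-AML3 (24.4%). The longest stretch with no peak in any line spanned 847 kb (54030781 to 54878092) and touched no coding gene. The next, of 818 kb (100987176 to 101805271), touched NALCN, the gene of a neuronal sodium leak channel, ITGBL1 and FGF14. HL-60 had more peaks (37) than any other line in bin 4, the first bin with determined sequence, where Molm13 had 17, OCI-AML3 18 and K562 14.

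To see which promoters keep the mark, a coding gene was called marked when a peak lay within 500 bp of a TSS of any of its protein-coding transcripts. Of 320 coding genes, 147 were marked in HL-60 cells (45.9%), 183 in Molm13 cells (57.2%), 190 in OCI-AML3 (59.4%) and 169 in K562 (52.8%). Over the 19689 coding genes of all chromosomes the shares were 43.5%, 52.7%, 56.5% and 54.8%. The share on chromosome 13 was below that of all coding genes in K562 and above it in the AML lines. In each line the interval for chromosome 13 (47.3% to 58.2% in K562) included the share over all coding genes. All 4 lines marked 135 genes (42.2%, against 39.6% of all coding genes), and none marked 121 (37.8%, against 36.9%). Of the 195 genes marked in at least 1 AML line, 165 were also marked in K562, or 84.6% (78.9% to 89.0%), against 85.8% on all chromosomes. The share depended on how many AML lines marked the gene. It was 93.1% of 145 genes marked in all 3 AML lines (94.9% on all chromosomes), 71.4% of 35 genes marked in 2 (71.4%) and 33.3% of 15 genes marked in 1 (47%). The 165 kept genes rested on 145 separate promoters and the 30 AML-only genes on 29, because divergent and overlapping genes share peaks. The 500 bp limit decided few genes: the kept promoter farthest from its K562 peak was VPS36 (443 bp), and the nearest AML-only promoters were IRS2 (650 bp), B3GLCT (708 bp) and N4BP2L1 (2600 bp).

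On 9 promoters, 10 genes were marked in all 3 AML lines and not in K562, or 3.13% of coding genes on the chromosome against 2.12% of all coding genes. Here and below, folds and then percentiles are given in the order HL-60, Molm13 and OCI-AML3. FLT3, the receptor tyrosine kinase of blood progenitors that is often mutated in AML, had folds of 4.19, 9.06 and 4.86 (percentiles 65.4, 95 and 93.3). Its promoter peak was 920 bp wide in HL-60 cells, 11765 bp in Molm13 cells and 12765 bp in OCI-AML3, and the nearest K562 peak lay 36499 bp from a TSS. DACH1, a nuclear factor that represses transcription, had folds of 5.60, 9.35 and 4.06 (percentiles 83.2, 95.5 and 81.9), and the nearest K562 peak was 859003 bp away. The lists differ in length, so percentiles place a peak within its own line only.

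N4BP2L1 had folds of 4.16, 9.59 and 4.79 (percentiles 64.8, 96.0 and 92.6). LACC1, an enzyme of macrophage metabolism, and CCDC122 shared 1 promoter peak with folds of 4.45, 5.99 and 3.59 (percentiles 70.0, 80.8 and 71.9). TNFSF13B, which encodes the B cell survival factor BAFF, had percentiles of 45.7, 84.4 and 85.8. RUBCNL, a regulator of autophagy, had 33.1, 87.0 and 77.8. FRY, a large protein that binds microtubules, had 34.2, 82.0 and 79.6. For ALOX5AP, which encodes the activating protein of leukotriene synthesis, the percentiles were 10.4, 74.7 and 81.6, and for the Hippo pathway kinase LATS2 they were 27, 66.0 and 54.4. Of these, 5 (CCDC122, DACH1, FLT3, LACC1 and N4BP2L1) stayed in this class under each of 6 other choices of threshold, window or TSS.

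Peaks were also counted in the surroundings of these genes. In windows from 10 kb before to 10 kb after the gene, FRY had 13 peaks in HL-60 cells, 34 in Molm13 cells, 34 in OCI-AML3 and 0 in K562. DACH1 had 3, 14, 31 and 0. For FLT3 the counts were 6, 13, 8 and 0, covering 7.60, 46.8 and 36.3 kb in the AML lines. Of the 10 genes, 9 had no K562 peak in the window, N4BP2L1 having 1. Among all 30 AML-only genes 23 (76.7%) had none, against 102 of the 121 genes marked in no line (84.3%).

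A further 10 of the 320 genes were marked in Molm13 and OCI-AML3 alone of the 4 lines, against 542 of 19689 on all chromosomes. GPR18, a G protein-coupled receptor of leukocytes, had folds of 4.76 and 5.08 (percentiles 68.6 and 95.3). NEK3, a protein kinase, had 4.64 and 4.93 (66.8 and 94.0). IRS2, an adaptor of the insulin receptor, had percentiles of 68.9 and 69.2, and LPAR6, a lysophosphatidic acid receptor whose gene lies within RB1, had 45.1 and 68.9. TBC1D4, a regulator of vesicle traffic, had a percentile of 82.2 in Molm13 cells and 9.42 in OCI-AML3. The group also held DNAJC15, SPATA13, the cyclin gene CCNA1 and the cytokine gene TNFSF11, whose peaks had percentiles of only 2.49 and 11.5. In OCI-AML3 alone 9 genes were marked (B3GLCT, IL17D, KCNRG, KCTD12, KLF12, LMO7, RGCC, SLAIN1 and SLITRK5), at percentiles from 3.09 to 66.5, and 1, CFAP97D2, in Molm13 alone (53.4). On all chromosomes 379 of 19689 coding genes were marked in OCI-AML3 alone and 127 in Molm13 alone. No gene was marked in HL-60 alone. In the AML lines, peaks at AML-only promoters had lower percentiles than those at kept promoters, with medians of 55.3 against 81.8 in HL-60 cells, 68.9 against 85.0 in Molm13 cells and 68.9 against 81.2 in OCI-AML3. The same order held over all chromosomes, with medians of 62.2 and 80, 65.0 and 84.4, and 58.6 and 82.0.

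Marks found in K562 alone were few. They were at 4 genes, 1.25% of coding genes on the chromosome (0.487% to 3.17%) against 4.68% of all coding genes. ATP7B, a copper transporter, had a fold of 4.09 in K562 (percentile 91.2) and the nearest AML peak was 813 bp from a TSS, in Molm13. The K562 peak also covered the start of ALG11, a divergent neighbour marked in Molm13 (fold 3.51) and OCI-AML3 (fold 3.38) as well, so that neighbour was not marked in K562 alone. The RefSeq promoter windows of the 2 genes overlap. Of the 4 lists only that of K562 had a peak touching the ATP7B window, whereas peaks of Molm13 and K562 touched the ALG11 window. The ATP7B gene window held 7 K562 peaks, against 0 in HL-60 cells, 1 in Molm13 cells and 1 in OCI-AML3. DOCK9, an exchange factor for the GTPase CDC42, had a fold of 3.89 (percentile 87.4), and ZIC2, a zinc finger factor of neural development, had 3.24 (68.9). FOXO1, a forkhead transcription factor, had a weaker peak with a fold of 2.64 (percentile 32.2), 208 bp from a TSS, and the nearest AML peak was 76257 bp away. ZIC2 alone kept this class under each of the 6 other choices, and ATP7B was lost from it with a 1000 bp window.

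The 10 leading genes among those marked in all 4 lines rested on 8 peaks. ALG5, an enzyme of N-glycosylation, and EXOSC8, a subunit of the RNA exosome, share a divergent promoter whose peak had folds of 8.29 in HL-60 cells, 11.7 in Molm13 cells, 6.69 in OCI-AML3 and 4.62 in K562, with percentiles of 96.1, 98.6, 99.7 and 97.3. RNF6, a ubiquitin ligase, had percentiles of 95.4, 99.9, 97.5 and 97.0 in the same order, and its Molm13 peak was the strongest of the chromosome in that line (fold 16.8). BRCA2, which repairs DNA by homologous recombination, and its divergent neighbour ZAR1L shared a peak with percentiles of 95.9, 92.4, 97.8 and 98.7. The others among the first 10 were PARP4, TRIM13, the repair endonuclease gene ERCC5, the Integrator subunit gene INTS6 and the ribosomal protein gene RPL21. RPL21 had the strongest HL-60 peak of the chromosome (fold 12.8, percentile 99.7) and a K562 percentile of 88.0. The strongest K562 peak, with a fold of 5.23 (percentile 99.5), was at MTIF3, a mitochondrial translation factor.

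Gene groups of the chromosome differed in which class they fell into, and are given here beside all 320 coding genes. Of these genes 165 were kept, 30 were AML-only, 135 (42.2%) were marked in all 4 lines and 121 (37.8%) were unmarked. The groups were listed with earlier results of these data known, so their counts are descriptions and do not test the groups. Of 23 blood and leukaemia genes, 8 were kept, all of them marked in all 4 lines, 10 were AML-only, 2 were K562-only and 3 were unmarked. The kept members were RB1, BRCA2, the ETS factor gene ELF1, the leukocyte actin-bundling gene LCP1, RASA3, ITM2B, LAMP1 and GPR183. RB1, which restrains entry into the cell cycle, had percentiles of 89.3, 93.5, 98.3 and 88.3 in HL-60, Molm13, OCI-AML3 and K562. LCP1 had 72.3, 88.0, 92.0 and 90.3. The AML-only members were ALOX5AP, CCNA1, FLT3, FRY, GPR18, IRS2, LMO7, LPAR6, TNFSF11 and TNFSF13B. All 41 genes of RNA, protein and mitochondrial upkeep were kept, 36 of them in all 4 lines, among them the exosome nuclease gene DIS3 and the proteasome maturation gene POMP. Of 25 cell cycle and DNA repair genes, 21 were kept, 3 were AML-only (CCNA1, LATS2 and NEK3) and NEK5 was unmarked.

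The region of 13q14 that is often lost in lymphoid leukaemia was largely marked in every line. Of 19 genes there, 15 were kept and 13 marked in all 4 lines. KCNRG and LPAR6 were AML-only, and CYSLTR2 and DLEU7 were unmarked. TRIM13, which flanks DLEU2, had percentiles of 97.1, 96.9, 92.8 and 96.8 in HL-60, Molm13, OCI-AML3 and K562. ARL11, in contrast, had 56.4, 93.1, 87.8 and 6.30. Developmental and neuronal genes were mostly without a peak. Of 11 developmental regulators 8 were unmarked (including CDX2, PDX1 and SOX1), DACH1 and KLF12 were AML-only and ZIC2 was K562-only. Of 25 neuronal adhesion, channel and signalling genes 23 were unmarked, SLITRK5 was AML-only and PCDH9 was marked in Molm13 and K562. Of 5 blood clotting genes 4 were unmarked, the exception being GAS6, as were 5 of 7 collagen and vessel genes, SPRY2 and COL4A2 being marked.

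Non-coding genes were examined in the same way. Of 438 long non-coding RNA (lncRNA) genes with no TSS within 2 kb of a coding TSS, 57 were marked in at least 1 AML line, and 15 of these also in K562, or 26.3% (16.6% to 39.0%). On all chromosomes the share was 48.3%. Overlapping lncRNA genes share peaks, so that these are fewer than 57 separate promoters. MIR17HG, the host of the miR-17-92 cluster that promotes proliferation, was marked in all lines, with percentiles of 68.7 in HL-60 cells, 86.2 in Molm13 cells, 94.3 in OCI-AML3 and 73.5 in K562. DLEU1, next to DLEU2, was also marked in all lines (85.8, 90.4, 97.8 and 91.8). LINC00563, whose OCI-AML3 peak lay 76213 bp from the nearest coding TSS (RUBCNL), was marked in the AML lines only. Its percentiles were 84.3 in HL-60 cells, 99.6 in Molm13 cells and 99.8 in OCI-AML3, and in OCI-AML3 it was the strongest peak of the chromosome (fold 6.92).

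Overlap between lists, with 1 bp as the minimum, showed the same split. Of the OCI-AML3 peaks on chromosome 13, 21.0% were overlapped in K562, against 40.5% over all chromosomes. For Molm13 the shares were 22.9% and 39.7%, and for HL-60 28.2% and 48.2%. By contrast, 53.0% of the K562 peaks were overlapped in OCI-AML3, against 40% over all chromosomes. Promoter peaks of OCI-AML3 were overlapped in K562 for 62.4% (171 of 274), and distal peaks for 7.95% (69 of 868). Between Molm13 and OCI-AML3, 54.9% of the Molm13 distal peaks were overlapped. Over all chromosomes the overlap was not computed for promoter and distal peaks apart. Whether these last shares are particular to chromosome 13 therefore cannot be told.

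Distal peaks of the 4 lists were merged into 1726 regions, of which 1539 were marked in at least 1 AML line. A line marked a region only by a distal peak, so a promoter peak reaching into the region was not counted. For example, a K562 distal peak in ELF1 (41002972 to 41012388) lay inside an OCI-AML3 promoter peak (40992298 to 41022028). Of the 278 distal K562 peaks, 81 overlapped an OCI-AML3 peak of either kind. Only 87 of the 1539 were also marked in K562, or 5.65% (4.61% to 6.92%), against 13.2% on all chromosomes. Of the 90 regions marked in all 3 AML lines 20 were also marked in K562, or 22.2% (14.9% to 31.9%), against 37.9% on all chromosomes. Regions marked only in K562 numbered 187, or 10.8% of all distal regions (9.45% to 12.4%), against 30.5% on all chromosomes. Of these 187 regions 25 lay in bin 20 and 21 in bin 6, and of the 70 regions marked in all 3 AML lines alone 15 lay in bin 7, the bin of FRY. The largest groups were those of 1 AML line alone, with 459 regions in OCI-AML3, 356 in Molm13 cells and 295 in HL-60, and that of Molm13 with OCI-AML3 (248). Regions of 1 AML line were narrow, with median widths of 566 to 729 bp, and had median percentiles of 18.7 to 26.3. The 70 regions of all 3 AML lines without K562 had a median width of 2422 bp and median percentiles of 48.6, 53.8 and 64.7 in HL-60, Molm13 and OCI-AML3. The 187 K562-only regions had a median width of 863 bp, with 48.6 as the median percentile. A region spans the merged peaks of its lines, so regions of several lines are wider by construction and these widths are not like for like.

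The widest region marked in all 3 AML lines and not in K562 spanned 26221 bp in FRY (32103892 to 32130112), with folds of 6.87 in HL-60 cells, 8.72 in Molm13 cells and 5.76 in OCI-AML3. The next 2 lay in UBAC2 (99217695 to 99233599, 15905 bp), a gene whose own promoter was marked in all 4 lines, and in PAN3 (28260428 to 28274366, 13939 bp), the neighbour of FLT3. A second PAN3 region (28243618 to 28259567, 15950 bp) was marked in Molm13 and OCI-AML3 only, as was a region of 9702 bp inside FLT3 (28040907 to 28050608). The second strongest OCI-AML3 peak of the chromosome was also in a region of Molm13 and OCI-AML3 only, in bin 18 (88917875 to 88922321, fold 6.81, percentile 99.8), and lay 1245260 bp from the nearest coding TSS, that of SLITRK5. A further 2 wide regions marked in the 3 AML lines lay between genes, with IRS2 (392486 bp away) and MYCBP2 (58911 bp away) as the nearest coding genes. Among regions marked in all 4 lines, the widest lay in ELF1 (40958886 to 40971851, 12966 bp). Another region, of 3560 bp (33540831 to 33544390) was marked in all 4 lines, with percentiles of 97.7, 99.1, 99.6 and 97.2, and lay 190201 bp from the nearest coding TSS, that of STARD13. The 2 widest K562-only regions lay in introns of MBNL2, which encodes a splicing factor, at 97252891 to 97262217 (fold 4.29, percentile 94.3) and 97243485 to 97251127 (fold 3.11, percentile 63.7). The third lay in an intron of FLT1, which encodes a receptor of vascular endothelial growth factor (28406786 to 28413125, percentile 88.4), and the fifth in an intron of ATP7B.

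Wide peaks were most frequent on chromosome 13 in Molm13 and OCI-AML3. Peaks of at least 10 kb numbered 18 in OCI-AML3, 11 in Molm13 cells, 1 in K562 and 0 in HL-60. In OCI-AML3 and Molm13 this was 1.58% and 1.09% of chromosome 13 peaks, against 1.08% and 0.800% of the whole lists, and in K562 0.209% against 1.53%. HL-60 had few wide peaks in its whole list (16, or 0.0770%). The widest peak was in OCI-AML3 at ELF1 (40992298 to 41022028, 29731 bp), and the second, of 25742 bp, covered the start of DLEU1, where K562 had a peak of 9876 bp. The single K562 domain (113206954 to 113221229, 14276 bp) covered the promoters of CUL4A, a scaffold of ubiquitin ligases, and PCID2.

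Base composition was not used to choose the members. RefSeq promoters were matched by symbol for 279 of the 320 coding genes. The ratio of observed to expected CpG had a median of 0.879 over 144 kept promoters (quartiles 0.797 and 0.981), 0.667 over 27 AML-only promoters (0.285 and 0.888), 0.919 over the 4 K562-only promoters and 0.605 over 104 unmarked promoters. The ratio was above 0.6 in 91.7% of kept and 59.3% of AML-only promoters, against 87.2% and 56.9% on all chromosomes. Kept promoters had a higher median than AML-only promoters on all chromosomes too (0.859 and 0.689), whereas K562-only promoters had 0.710 there. Classes rest on GENCODE starts and windows on RefSeq starts, which differ for some genes. An ETS core was present in 29 of 144 kept promoters (20.1%) and in 1 of 27 AML-only promoters (3.70%), against 23.2% and 7.92% on all chromosomes. PU.1-type matches were in 29.2% of kept and 44.4% of AML-only promoters (26.7% and 31.9% on all chromosomes). Unmarked promoters held an ETS core in 3.85% and a PU.1-type match in 32.7% (3.50% and 28.4% on all chromosomes). A GATA match was in 0 kept, 2 AML-only and 0 K562-only promoters. Distal peaks were poorer in GC than promoter peaks in all lines, with medians of 39.2% to 41.1% against 50% to 56.1%.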

How the data were processed

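The samples were ChIP-seq libraries of human leukaemia cell lines, and the files used here were the broad peak lists of 4 H3K27ac libraries and the peak list of 1 dCas9 library (from K562 cells with a pool of 4 guide RNAs against LTR2B repeats). Per the submitters' processing notes, the authors trimmed reads with Trim Galore 0.4.5, aligned them to hg38 with Bowtie2 2.3.4 (the methods name another version) and called peaks with MACS2 2.1.1, using its broad option and a q-value limit of 0.05 for histone marks. Which control library was used is not given in the sources used here. The deposited lists give each peak a score, a fold enrichment ratio over background, and a −log10 p-value and −log10 q-value. Read counts are not part of these lists, so depth is unknown.

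The deposited peaks on chromosomes 1 to 22, X and Y were used, leaving out 35 to 70 peaks per list on other contigs. Python 3.11.15 with pandas 2.3.3 and SciPy 1.17.1 was used, with start sites from GENCODE 44. Overlap and promoter calls were tested on simulated peaks. Shares carry Wilson 95% intervals. With 1 library per line no test was run. Genes were named if they were in a gene list, marked in all 3 AML lines and not in K562, marked only in K562, or among the 10 strongest marked in all 4 lines by mean percentile, and for distal regions the 5 widest of each class were taken; the genes of the 2 other AML-only groups, and the leading lncRNA genes were added after their values were seen. The members, gene lists and classes were chosen with earlier results of these data known. Alternatives covered the q-value limit, list length, promoter window, start sites, overlap, merging and bin offset. The H3K9me3, input and other samples were not analysed here, and 3 genes are not reported by name.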

Additional observations from a re-analysis of the deposited data

Results flagged for a closer look

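The dCas9 list, which enters no comparison above, held 9 peaks on chromosome 13, of 395 in all (2.28%), in K562 cells with guide RNAs against LTR2B repeats. It is given as a signal outside the comparisons above: no control list was set beside it, and its share on the chromosome was not compared with other chromosomes. Their fold enrichment ran from 3.04 to 14.6, with a median of 7.25. The strongest lay between genes at 102440080 to 102440552, 37623 bp from the nearest coding start in GENCODE, that of FGF14. One lay in an intron of RB1 (48591477 to 48591650, fold 6.87). Of the 9, 2 overlapped a K562 H3K27ac peak, at 94549746 to 94549933 (fold 10.7) and at 107911058 to 107911149 (fold 4.31), and neither of these overlapped a peak of an AML line.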

How the results depend on the processing

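No paired analysis was possible because 1 library per line was used and the replicate numbers name no shared culture. Of 140 values recomputed under another choice, 97 stayed within their interval or within 1.5 times the reported count, and 43 moved; fewer peaks are left at stricter limits by construction, and no other cause was tested. The shares of each list and of distal peaks were recomputed after the data had been seen. At q below 0.05, HL-60 had 465 peaks and K562 468, so that their order turned, the HL-60 share of the list on chromosome 13 was 2.63%, its share of distal peaks 3.38% and its promoter share 36.6%. At q below 0.001, peaks numbered 211 in HL-60 cells, 402 in Molm13 cells, 528 in OCI-AML3 and 227 in K562 (again above HL-60), or 2.29%, 2.35%, 2.49% and 1.41% of the lists, with promoter shares of 61.1%, 47.5%, 42.0% and 67.8%. The shares of distal peaks were then 3.37% in HL-60 cells, 2.88% in Molm13 cells and 3.15% in OCI-AML3. Of AML-marked coding promoters 77.0% were kept in K562, and the share over all chromosomes was not computed at that limit. Distal regions numbered 58 in K562 only, 26 in all 3 AML lines only, 5 in all 4 lines and 383 in AML lines without K562. With lists reduced to the length of the shortest, peaks numbered 515 in Molm13 cells, 514 in OCI-AML3 and 309 in K562 (2.48%, 2.47% and 1.49% of the lists), promoter shares were 39.2%, 42.4% and 57.6%, and shares of distal peaks 3.08%, 3.15% and 1.40%. Distal regions then numbered 94 in K562 only, 44 in all 3 AML lines only, 10 in all 4 lines and 724 in AML lines without K562. With coding start sites only, promoter shares were 23% in HL-60 cells, 17.7% in Molm13 cells, 16.6% in OCI-AML3 and 33.0% in K562. In K562 chromosome 13 was last of the 22 autosomes in total and in distal density under the 4 choices of list, and its promoter share was above that of the whole list in K562 and below it in the AML lines under each of them.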
